A study of Mus musculus with 10 samples.

Results

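The genes Gip, Cck, Sct, Ghrl and Sst encode the hormones that name the K, I, S, X and D cells of the gut. They were chosen by gene symbol and are 5 of the 54532 genes in the count table, and all 5 were among the 15703 genes that could be tested. RNA was sequenced from small intestinal epithelium of 5 litter-matched Gucy2c-GFP mice of the CD1/ICR stock, aged 10 weeks. In these mice a transgene places GFP under the Gucy2c promoter, and GUCY2C is the guanylyl cyclase receptor of the intestinal epithelium. Cells of each mouse were sorted by GFP into a high group (GUCY2Chi) and a medium group (GUCY2Cmed, labelled both Medium and Lo), with 20000 cells in each of the 10 libraries. Both groups carry the transgene, the sort followed the reporter rather than the receptor, and the label numbers 2, 7, 12, 14 and 15 were read as mouse numbers.

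Enteroendocrine cells are scattered single cells of the gut epithelium that sense the contents of the lumen and release peptide hormones from granules at their base. Glucose-dependent insulinotropic polypeptide from K cells increases insulin release after meals, cholecystokinin from I cells contracts the gallbladder and signals satiety, and secretin from S cells stimulates bicarbonate secretion by the pancreas. Ghrelin from X cells, which are most abundant in the stomach, stimulates appetite, and somatostatin from D cells inhibits the release of many other hormones.

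Between 13090212 and 13520800 counts on genes were obtained per GUCY2Chi library and between 10903958 and 15307932 per GUCY2Cmed library. Levels are given as TMM-normalized cpm, a library-size scaled count that adjusts for differences in composition between libraries. Gucy2c itself was at 1321 ± 526 cpm in GUCY2Chi and 404 ± 64.7 cpm in GUCY2Cmed cells (SD, n = 5). GUCY2Chi libraries 12 and 15 stood apart. The summed level of 14 enterocyte markers there was 45.3% and 42.8% of that in the GUCY2Cmed library of the same mouse, compared with 5.52%, 5.52% and 6.18% in libraries 2, 7 and 14. The summed level of 8 enteroendocrine markers, of which Chgb and Chga made up from 48.9% to 71.0% and from 22.2% to 33.0% in GUCY2Chi libraries, was 5041 cpm in GUCY2Chi library 15 and 22109 cpm in library 12, compared with at least 48142 cpm in the other 3 GUCY2Chi libraries and at most 144 cpm in GUCY2Cmed libraries. Library 15 was 11.7-fold below the highest library for this sum and 4.23-fold for the sum without Chgb and Chga. Libraries 2 and 14 had the highest sums of 5 Paneth cell markers, 45549 and 26746 cpm compared with 6154 to 10295 cpm in the other 3 GUCY2Chi libraries, and library 2 the highest sum of 7 goblet cell markers, 23437 cpm compared with at most 9809 cpm. The sum of 10 forebrain neuron genes also varied in both groups, from 202 to 2200 cpm in GUCY2Chi and from 25.4 to 1161 cpm in GUCY2Cmed libraries. In GUCY2Chi libraries 2 and 14 this sum was mostly Olfm1, at 168 and 127 cpm, and Cplx2, at 36.5 and 42.6 cpm. Nrgn was at 20.0 and 21.9 cpm there.

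Because the 5 genes differed between the groups in the same direction, the DNA before their RefSeq start sites is shown for Gip, Cck, Sct and Ghrl, together with a cAMP response element before the RefSeq start of Sst. All 5 genes matched a RefSeq promoter on GRCm38.p6. The sequences run 5′ to 3′ on the strand of the gene, and capitals mark the motifs that were found. The searched motifs, on both strands of the 250 bases before the start, were the cAMP response element TGACGTCA, the E-box CAGNTG that basic helix-loop-helix factors bind, the sites AGATAA for GATA factors and, as their second form, TGATAA, the homeodomain core TAATNA, the TATA box written as TATAAA, and the GC box written as GGGCGG.
Gip, chr11:96024295-96024531, plus strand: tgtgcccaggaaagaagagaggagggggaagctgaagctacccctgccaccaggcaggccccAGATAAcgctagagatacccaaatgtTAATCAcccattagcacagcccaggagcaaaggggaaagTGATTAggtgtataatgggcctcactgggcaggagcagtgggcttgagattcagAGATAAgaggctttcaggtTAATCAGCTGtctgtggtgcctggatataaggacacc
Cck, chr9:121495695-121495944, minus strand: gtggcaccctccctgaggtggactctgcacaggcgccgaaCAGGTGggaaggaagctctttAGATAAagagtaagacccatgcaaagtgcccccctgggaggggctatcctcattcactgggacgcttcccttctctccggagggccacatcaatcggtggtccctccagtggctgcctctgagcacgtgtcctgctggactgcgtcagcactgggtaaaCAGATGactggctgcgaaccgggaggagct
Sct, chr7:141279175-141279383, minus strand: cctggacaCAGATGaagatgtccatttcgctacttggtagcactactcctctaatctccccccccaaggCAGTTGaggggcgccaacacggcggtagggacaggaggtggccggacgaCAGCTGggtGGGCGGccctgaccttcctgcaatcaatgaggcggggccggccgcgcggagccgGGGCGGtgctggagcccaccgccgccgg
Ghrl, chr6:113719912-113720161, minus strand: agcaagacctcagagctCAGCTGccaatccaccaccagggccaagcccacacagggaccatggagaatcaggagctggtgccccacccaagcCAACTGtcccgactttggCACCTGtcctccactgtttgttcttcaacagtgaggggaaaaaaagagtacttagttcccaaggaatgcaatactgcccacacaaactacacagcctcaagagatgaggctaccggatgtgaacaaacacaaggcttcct
Sst, chr16:23890874-23890903, minus strand: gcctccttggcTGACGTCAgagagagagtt

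No motif was found in the windows of all 5 genes. The window of Gip held 2 AGATAA sites and 3 TAATNA cores, one of which overlapped its E-box, and that of Cck held 1 AGATAA site and 2 E-boxes. The windows of Sct and Ghrl held 3 E-boxes each, and Sct also had 2 GC boxes and, outside the printed bases, a TATAAA box. The window of Sst held TGACGTCA and none of the other searched motifs. It was counted from the RefSeq start at position 23890844, which lies inside the Sst interval of the gene table, so the printed bases are within that interval. Among 32851 RefSeq promoters of the same length, 44.8% held CAGNTG, 32.7% GGGCGG, 24.3% TAATNA, 12.4% TATAAA, 9.99% AGATAA and 1.55% TGACGTCA. A match of letters is a description and was not tested as a binding site.

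All 5 hormone genes were higher in GUCY2Chi than in GUCY2Cmed cells, and each mouse showed it, 5 of 5, without overlap of the groups. By comparison, 13.9% of the 15703 genes were called higher at an adjusted p under 0.01 (quasi-likelihood test of edgeR, Benjamini-Hochberg adjusted), and 16.7% were higher with no overlap between the groups. The fitted differences ranged from 6.82 log2 units for Sst to 11.30 for Gip, and the exact two-sided permutation test gave p = 0.00794 for each gene, the smallest value that 5 libraries against 5 allow. In bulk samples, more cells of a type and more RNA per cell cannot be told apart.

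**Figure D1:**
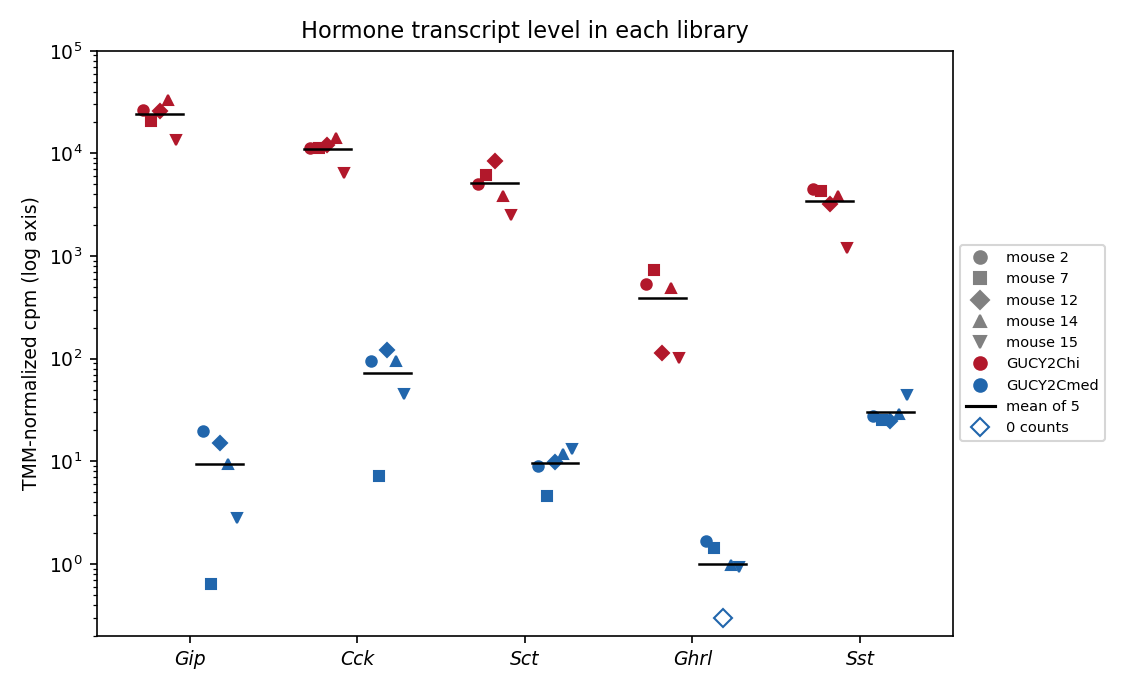
TMM-normalized cpm (log axis) of the 5 hormone genes in each library, with GUCY2Chi in red, GUCY2Cmed in blue, 1 symbol per mouse, a bar at the mean of 5 and an open symbol for 0 counts. No GUCY2Cmed library reached a GUCY2Chi library for any of the 5 genes. On the log axis the spread was widest for Ghrl in GUCY2Chi cells and for Ghrl, Gip and Cck in GUCY2Cmed cells. For Ghrl, GUCY2Cmed library 12 had 0 counts and the other GUCY2Cmed libraries were between 0.941 and 1.68 cpm.

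Gip (ENSMUSG00000014351), the K cell hormone, lies on GRCm38 chr11:96024545-96030831 on the plus strand. Its levels in GUCY2Chi libraries 2, 7, 12, 14 and 15 were 26529.7, 20887, 25868, 33268 and 13641 cpm, and those in the GUCY2Cmed libraries in the same order were 19.6, 0.642, 14.97, 9.45 and 2.82 cpm. The lowest GUCY2Chi library was thus 694-fold above the highest GUCY2Cmed library. The difference was 11.30 ± 1.04 log2 units (SE) at an adjusted p of 2.33e-05 (edgeR). Per kb of gene length, Gip ranked 1 among all tested genes in each of the 5 GUCY2Chi libraries. Within GUCY2Cmed cells it spanned 30.6-fold, from 8 counts in library 7 to 210 counts in library 2.

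Cck (ENSMUSG00000032532; chr9:121489824-121495694, minus strand), the I cell hormone, was at 11281, 11398, 12034, 14017 and 6400.5 cpm in GUCY2Chi libraries 2, 7, 12, 14 and 15. It was at 94.8, 7.14, 122, 95.1 and 45.5 cpm in the GUCY2Cmed libraries. Library 15 was lowest among the GUCY2Chi libraries and library 7 among the GUCY2Cmed libraries, and the groups did not overlap. The difference was 7.24 ± 0.75 log2 units at an adjusted p of 4.75e-05 (edgeR). Per kb of gene length its mean level in GUCY2Cmed cells, 55.9 ± 35.3 cpm (SD, n = 5), differed from that of Sst, 41.8 ± 11.1 cpm, by less than the spread.

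Sct (ENSMUSG00000038580; chr7:141278330-141279133, minus strand), the S cell hormone, was at 5037, 6185, 8397, 3842 and 2537 cpm in GUCY2Chi libraries 2, 7, 12, 14 and 15. In GUCY2Cmed libraries it was at 8.98, 4.57, 9.86, 11.8 and 13.1 cpm. Library 12, in which the enteroendocrine sum was the second lowest, had the highest Sct level. The difference was 9.07 ± 0.52 log2 units at an adjusted p of 2.13e-06 (edgeR), with no overlap between the groups.

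Ghrl (ENSMUSG00000064177; chr6:113716119-113719880, minus strand), the ghrelin gene, had the lowest level of the 5 per kb of gene length in each GUCY2Chi library. It was at 529, 735, 112, 484 and 101 cpm in GUCY2Chi libraries 2, 7, 12, 14 and 15, so that the GUCY2Chi libraries fell into 3 high and 2 low values, the low values being those of libraries 12 and 15. In GUCY2Cmed libraries it had 18, 18, 0, 13 and 11 counts, or at most 1.68 cpm. The difference was 8.61 ± 0.91 log2 units at an adjusted p of 5.50e-05 (edgeR), and 9.23 without GUCY2Chi libraries 12 and 15.

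Sst (ENSMUSG00000004366; chr16:23889573-23890958, minus strand), the D cell hormone, was at 4535, 4260.2, 3189, 3872 and 1210.45 cpm in GUCY2Chi libraries 2, 7, 12, 14 and 15. In GUCY2Cmed libraries it was at 27.4, 25.4, 24.9, 28.7 and 44.1 cpm. It was the steadiest of the 5 genes in GUCY2Cmed cells, where the highest library, 15, was 1.77-fold above the lowest, and library 15 was at the same time the lowest GUCY2Chi library. The difference was 6.82 ± 0.44 log2 units at an adjusted p of 3.76e-06 (edgeR). The lowest GUCY2Chi library was 27.4-fold above the highest GUCY2Cmed library, the narrowest margin of the 5 genes. Without GUCY2Chi libraries 12 and 15 the differences of Gip, Cck, Sct and Sst were 11.48, 7.41, 9.05 and 7.16 log2 units.

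The 5 genes together took 5.27%, 5.47%, 4.91%, 5.50% and 2.85% of all counts in GUCY2Chi libraries 2, 7, 12, 14 and 15, and between 0.00369% and 0.0156% in GUCY2Cmed libraries. The hormone genes Gcg, Pyy and Nts, which are typical of L and N cells, took from 1.33% to 4.93% in GUCY2Chi libraries. To compare levels between genes, cpm was divided by gene length. On this per-kb scale Gip made up 61.9% ± 5.28 of the summed level of the 5 genes in GUCY2Chi cells (SD, n = 5), followed by Cck with 15.1% ± 0.915, Sct with 14.3% ± 4.57, Sst with 8.16% ± 2.20 and Ghrl with 0.625% ± 0.422. Gip was first and Ghrl last in every GUCY2Chi library. Cck and Sct did not differ beyond their spread, since their per-kb ratio ranged from 0.708 to 1.80, whereas both were above Sst in every GUCY2Chi library. In GUCY2Cmed cells the order was another. Cck and Sst made up 38.7% ± 18.7 and 38.7% ± 21.1, Sct 12.3% ± 3.29, Gip 9.27% ± 6.89 and Ghrl 1.004% ± 1.002. Sst led with 70.4% in GUCY2Cmed library 7 and 50.4% in library 15, and Cck led in libraries 2, 12 and 14.

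**Figure D2:**
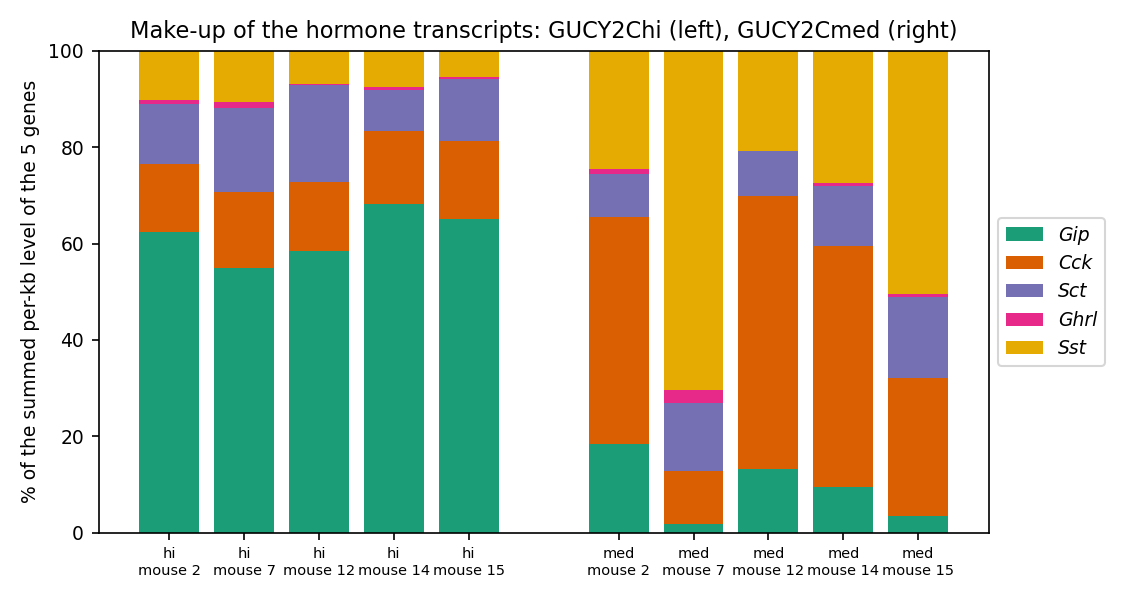
Share of each gene in the summed per-kb level of the 5 hormone genes (bars, % on the y axis), by library, with GUCY2Chi on the left and GUCY2Cmed on the right. Gip made up from 55.0% to 68.3% in GUCY2Chi libraries and at most 18.5% in GUCY2Cmed libraries.

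These shares depended on the gene length used. The deposited FPKM correspond to a length of 589 bases for Cck and 443 for Ghrl, compared with 1305 and 1079 in the gene table, whereas for Sst both are 721. From FPKM the shares in GUCY2Chi cells were 52.9% for Gip, 26.1% for Cck, 13.3% for Sct, 6.39% for Sst and 1.19% for Ghrl. Gip remained first and Ghrl last, and Cck was above Sct in each GUCY2Chi library on that scale. In GUCY2Cmed cells the FPKM shares were 54.1% ± 21.5 for Cck and 27.7% ± 19.7 for Sst. On that scale Sst led in library 7 alone, with 58.7% compared with 20.2% for Cck, whereas in library 15 Cck was at 45.6% and Sst at 36.2%.

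Ratios of one hormone to another within a library do not depend on scaling between libraries. For the 10 pairs the log2 count ratio was tested by exact two-sided permutation, with p adjusted over 10 pairs. As in the other permutation tests, libraries were rearranged without regard to the mouse, and a paired test was not run. The changes for 4 pairs had an adjusted p of 0.0198, and the groups did not overlap for any of them. The ratio of Gip to Cck was 4.31 log2 units higher in GUCY2Chi cells, Gip to Sct 2.97, Gip to Sst 5.29 and Sct to Sst 2.32, each in 5 of 5 mice. Per kb, Gip exceeded Cck by 4.47-, 3.48-, 4.08-, 4.51- and 4.05-fold in GUCY2Chi libraries 2, 7, 12, 14 and 15, an SD of only 0.15 log2 units. In GUCY2Cmed libraries the same ratio was 0.395, 0.180, 0.233, 0.189 and 0.120, so Gip was below Cck in each of them. From FPKM, with its other gene lengths, the ratio of Gip to Cck was from 1.72 to 2.22 in GUCY2Chi and from 0.0581 to 0.194 in GUCY2Cmed libraries. Sct exceeded Sst per kb by 1.11- to 2.94-fold in GUCY2Chi libraries and was between 0.202 and 0.459 of it in GUCY2Cmed libraries, compared with 1.32- to 3.51-fold and 0.240 to 0.546 from FPKM. The changes between the groups do not depend on gene length.

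The other 6 ratios did not pass. For Ghrl to Sst the change was 2.16 log2 units, in 5 of 5 mice, at an adjusted p of 0.0635 (exact permutation test), and the groups overlapped. Cck to Sct changed by -1.34 (adjusted p = 0.132) and Gip to Ghrl by 3.13 (adjusted p = 0.159), again by the exact permutation test. Cck to Sst, Cck to Ghrl and Sct to Ghrl changed by 0.98, -1.18 and 0.16, with adjusted p of at least 0.387 in the same exact test. Ratios to Ghrl in GUCY2Cmed cells rest on at most 18 counts per library. With libraries 12 and 15 left out of the GUCY2Chi group, 3 libraries against 5 allow no exact p below 0.0357, and the 4 changes were 4.32, 3.13, 5.04 and 1.91 at an adjusted p of 0.0714.

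**Figure D3:**
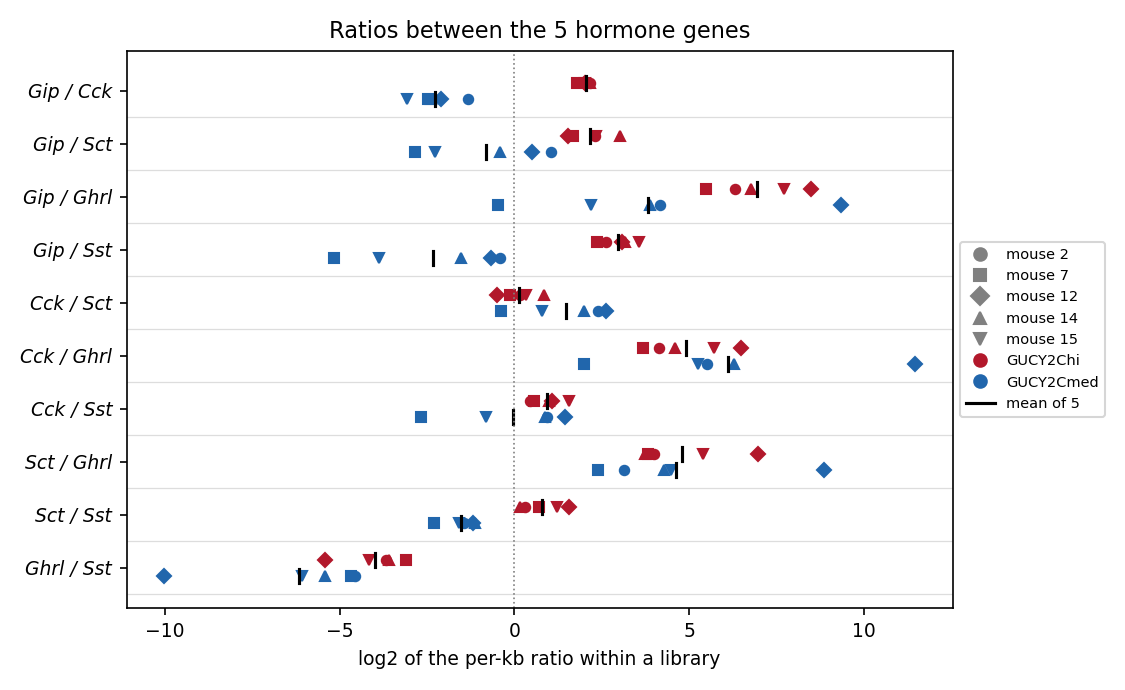
Log2 of the per-kb ratio of 2 hormone genes within each library (x axis; 0, dotted, is equal level) for the 10 pairs, with GUCY2Chi in red, GUCY2Cmed in blue, 1 symbol per mouse and a bar at the mean of 5. The groups were apart for Gip to Cck, Gip to Sct, Gip to Sst and Sct to Sst and overlapped for the other 6 pairs.

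Set against the distal hormone genes, the 5 did not move alike. Of 15 ratios to Gcg, Pyy and Nts, tested in the same way and adjusted over 15, 7 passed. The ratios of Sst to Gcg, Pyy and Nts were lower in GUCY2Chi cells by -2.32, -5.15 and -4.53 log2 units, those of Cck to Pyy and Nts by -4.18 and -3.55, and that of Sct to Pyy by -2.84, each at an adjusted p of 0.0198 (exact permutation test). The ratio of Gip to Gcg was 2.97 log2 units higher at an adjusted p of 0.0340 (exact permutation test), although leaving out any one of 8 of the 10 libraries gave adjusted p of 0.0595 or 0.0680. Ratios of Gip to Pyy and Nts changed by 0.13 and 0.76, and of Sct to Gcg by -0.0025, none past the threshold. Gcg encodes proglucagon, Pyy peptide YY and Nts neurotensin. In GUCY2Cmed libraries 2, 7, 12, 14 and 15 ratios to Pyy rest on 10, 2, 8, 10 and 19 Pyy counts. Those to Nts rest on 456, 10, 34, 76 and 147 Nts counts.

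Variation over the GUCY2Chi libraries differed among the genes. The SD of log2 cpm was 0.43 for Cck, 0.49 for Gip, 0.66 for Sct, 0.78 for Sst and 1.35 for Ghrl, compared with a median of 0.38 over the 1512 genes at 100 cpm or more in this group. Relative to the enteroendocrine sum of the same library the SD was larger for Cck, Gip and Sct, at 1.12, 1.14 and 1.26, and smaller for Sst and Ghrl, at 0.74 and 0.72. Gip amounted to 55.1%, 35.5%, 117%, 62.3% and 271% of the enteroendocrine sum in libraries 2, 7, 12, 14 and 15, and Cck to 23.4%, 19.3%, 54.4%, 26.2% and 127%. Libraries 12 and 15 were thus the highest for both genes on this scale. Relative to the sum without Chgb and Chga, a reference chosen after the data were seen, the SD was 0.62 for Gip, 0.64 for Cck, 0.97 for Sct, 0.41 for Sst and 0.63 for Ghrl. On that scale too Gip and Cck were highest in library 12 and next highest in library 15. Chga, the granule protein chromogranin A and itself part of the sum, stayed between 22.2% and 33.0% of it, at 10667, 13597, 7291, 15784 and 1427 cpm. In library 15, the lowest for all 3 genes, Chga was 11.1-fold below its highest library, while Gip and Cck were 2.44-fold and 2.19-fold below theirs.

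Within GUCY2Cmed libraries the SD of log2 cpm was 0.34 for Sst, 0.59 for Sct, 1.68 for Cck, 2.004 for Gip and 2.32 for Ghrl. The median was 0.27 over the 1794 genes at 100 cpm or more in this group. All 5 hormone genes averaged below that level, from 1.01 cpm for Ghrl to 73.0 cpm for Cck, so that median is not one of genes at a like level. Ghrl had 0 counts in GUCY2Cmed library 12, raised to 0.5 before the log, and 11 to 18 counts in the others. The summed level of 10 forebrain neuron genes in GUCY2Cmed libraries 2, 7, 12, 14 and 15 was 887, 25.4, 1161, 882 and 415 cpm. Cck and Gip were lowest in library 7 and next lowest in library 15, as this sum was, whereas Sst was highest in library 15. In GUCY2Chi libraries the forebrain sum was 234, 915, 786, 202 and 2200 cpm. It was highest in library 15, where all 5 hormone genes and the enteroendocrine sum were lowest. With this sum as a covariate the differences were 7.45 log2 units for Cck and 11.60 for Gip, and 9.01, 8.82 and 6.87 for Sct, Ghrl and Sst, all at adjusted p under 0.01 (edgeR). Of 6 cortical interneuron genes, which mark cells that can express Sst or Cck, the summed level was at most 7.28 cpm in GUCY2Cmed and 18.3 cpm in GUCY2Chi libraries. Stomach and pancreas also express Ghrl and Sst. Of 10 stomach genes only Tff1 and Muc5ac, and of 9 pancreas genes only Cpa1 and Prss2, were at 0 in all 10 libraries. Other members were present in GUCY2Chi libraries, such as Gast at 2.71 to 4.54 cpm and Iapp at 59.6 to 196 cpm. In GUCY2Cmed libraries these were at most 0.0855 and 0.935 cpm. The summed level of 10 stomach genes was nevertheless from 98.8 to 165 cpm in GUCY2Chi and from 2.53 to 12.3 cpm in GUCY2Cmed libraries, mostly Pgc in GUCY2Chi cells, and that of 9 pancreas genes was from 80.6 to 227 and from 12.8 to 15.6 cpm, mostly Iapp and Cela1. The enteric neuron gene Hand2 was at 0 in all libraries, and the summed level of 7 enteric neuron genes was from 70.3 to 278 cpm in GUCY2Chi and from 3.13 to 125 cpm in GUCY2Cmed libraries, mostly Uchl1 and Ret. The part of other cells in the hormone levels was not tested beyond these values.

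**Figure D4:**
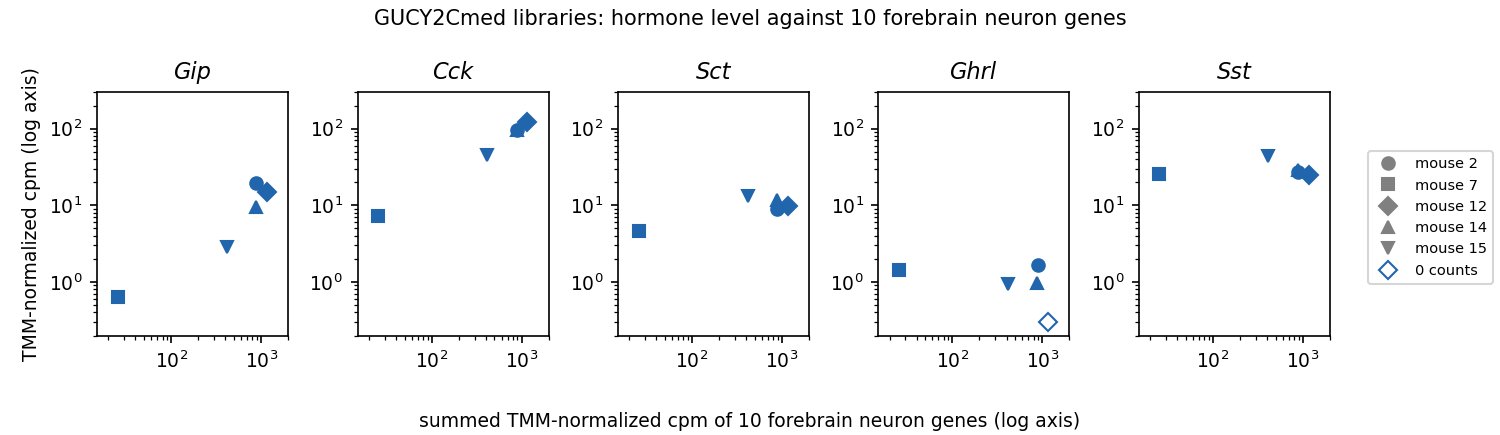
TMM-normalized cpm of each hormone gene in the 5 GUCY2Cmed libraries (y axis, log) against the summed cpm of 10 forebrain neuron genes (x axis, log), 1 symbol per mouse and an open symbol for 0 counts. Library 7, with a forebrain sum of 25.4 cpm, had the lowest Gip, Cck and Sct, while Sst there was at 25.4 cpm, within the range of the other libraries.

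The enzymes and chaperones that turn prohormones into active peptides were mostly higher in GUCY2Chi cells. Of 10 maturation genes, all tested, 7 were higher, 0 lower and 3 not past the threshold, with a median difference of 4.74 log2 units compared with 0.09 over all genes, of which 13.9% were called higher. Pcsk1, the convertase that cleaves many gut prohormones, differed by 6.67 ± 0.43 log2 units, and Scg5, chaperone of the related convertase PCSK2, by 6.35 ± 0.71. Cpe, the carboxypeptidase that trims the cleaved ends, differed by 6.03 ± 0.76 and Pam, which amidates the ends of cholecystokinin and secretin, by 4.70 ± 0.45. The tyrosine sulfotransferases Tpst1 and Tpst2, which make the sulfated form of cholecystokinin, differed by 5.70 ± 0.42 and 3.11 ± 0.31. Pcsk2, Pcsk1n and Furin did not pass, with differences of 1.44, 1.79 and -0.51 and adjusted p of 0.0666, 0.0485 and 0.273 (edgeR). Cpe was at 109, 7.78, 138, 109 and 61.4 cpm in GUCY2Cmed libraries 2, 7, 12, 14 and 15, and like Scg5 and Pcsk1n it was lowest in library 7 and next lowest in library 15, as the forebrain sum was. With that sum as a covariate the differences of Cpe, Scg5 and Pcsk1n were 6.24, 6.54 and 2.03 log2 units, all past the threshold (edgeR).

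Mboat4, the acyltransferase that activates ghrelin, was at 6.11, 32.5, 1.44, 39.1 and 5.35 cpm in GUCY2Chi libraries 2, 7, 12, 14 and 15 and between 0.321 and 1.37 cpm in GUCY2Cmed libraries. It was lowest in libraries 12 and 15, as Ghrl was, and low in library 2, where Ghrl was at 529 cpm. The difference was 4.79 ± 0.91 log2 units at an adjusted p of 0.00215 (edgeR), and 0.0114 with the mouse as replicate block. Mboat4 was not over 0.5 cpm in 3 GUCY2Cmed libraries and entered the test only through GUCY2Chi libraries. Its call and the median of the maturation genes were thus partly set by the filter.

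Among 10 receptors of the 5 hormones, 6 could be tested, 5 were higher and Cckbr was not past the threshold, with a median difference of 4.30 log2 units, where 13.9% of all genes were called higher. Gipr, Sstr1, Sstr3 and Sstr5 were not over 0.5 cpm in 3 GUCY2Cmed libraries. They entered the test only through the GUCY2Chi libraries where they were high, so their calls and the median were partly set by the filter. The somatostatin receptors made up most of the 5 higher receptors. Sstr5 was at 138 ± 58.8 cpm in GUCY2Chi and 0.149 ± 0.181 cpm in GUCY2Cmed cells (SD, n = 5), a difference of 9.80 ± 0.68 log2 units. Sstr1, at 140.2 ± 52.3 cpm in GUCY2Chi cells, differed by 8.24 ± 0.57, Sstr3 by 4.85 ± 0.52 and Sstr2 by 3.75 ± 0.49. Gipr, the receptor of the K cell hormone, was at most 7.41 cpm and differed by 3.21 ± 0.75 at an adjusted p of 0.00614 (edgeR). That call was kept in only 4 of the 10 fits that leave out 1 library, and the adjusted p was 0.0264 with the replicate block and 0.0133 in limma-voom without it, which called only Sstr1, Sstr2, Sstr3 and Sstr5. The cholecystokinin receptor gene Cckar, the secretin receptor gene Sctr, the ghrelin receptor gene Ghsr and Sstr4 did not reach the minimum level, and Sctr had 0 counts in all 10 libraries, which allows up to 3 counts per library.

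Of 14 transcription factors of enteroendocrine differentiation, 11 were higher, 1 was lower and 2 did not pass, with a median difference of 5.58 log2 units, where 13.9% of all genes were called higher. Isl1, Rfx6, Neurod1 and Pax6, which act in endocrine cells of gut and pancreas, differed by 8.74, 8.47, 8.46 and 8.09 log2 units. Hhex, required for D cells in the pancreas, differed by 6.83 ± 0.80 and was at 47.2, 57.6, 14.5, 64.0 and 10.7 cpm in GUCY2Chi libraries 2, 7, 12, 14 and 15. It was lowest in libraries 15 and 12, as were 11 of the 14 factors. The enteroendocrine sum was lowest there too, and the share of all genes lowest there was not counted. By library-size cpm, the scale of the filter, Isl1, Pax6, Rfx6, Hhex and Nkx2-2 were not over 0.5 cpm in 3 GUCY2Cmed libraries. They entered the test only through GUCY2Chi libraries where they were high, so their calls and the median were partly set by the filter. Nkx2-2, Insm1, Pax4, Etv1, Foxa1 and Foxa2 differed by between 3.25 and 6.58, and Etv1 had an adjusted p of 0.0125 with the replicate block (edgeR). Neurog3, which starts endocrine differentiation in progenitors, was at 2.70 ± 0.764 cpm in GUCY2Chi and 2.78 ± 1.25 cpm in GUCY2Cmed cells (adjusted p = 0.954, edgeR). Pdx1, an activator of Gip in K cells, was at 54.8 ± 20.4 and 31.5 ± 10.6 cpm, a difference of 0.80 ± 0.29 at an adjusted p of 0.0475 (edgeR), and it passed without GUCY2Chi libraries 12 and 15. Gata4, a GATA factor of proximal intestine, was lower by -0.85 ± 0.19 at an adjusted p of 0.00540 (edgeR), a call lost with the replicate block, without TMM, without GUCY2Chi libraries 12 and 15 and in 7 of the 10 fits that leave out 1 library. For the lower direction 8.79% of all genes were called.

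**Figure D5:**
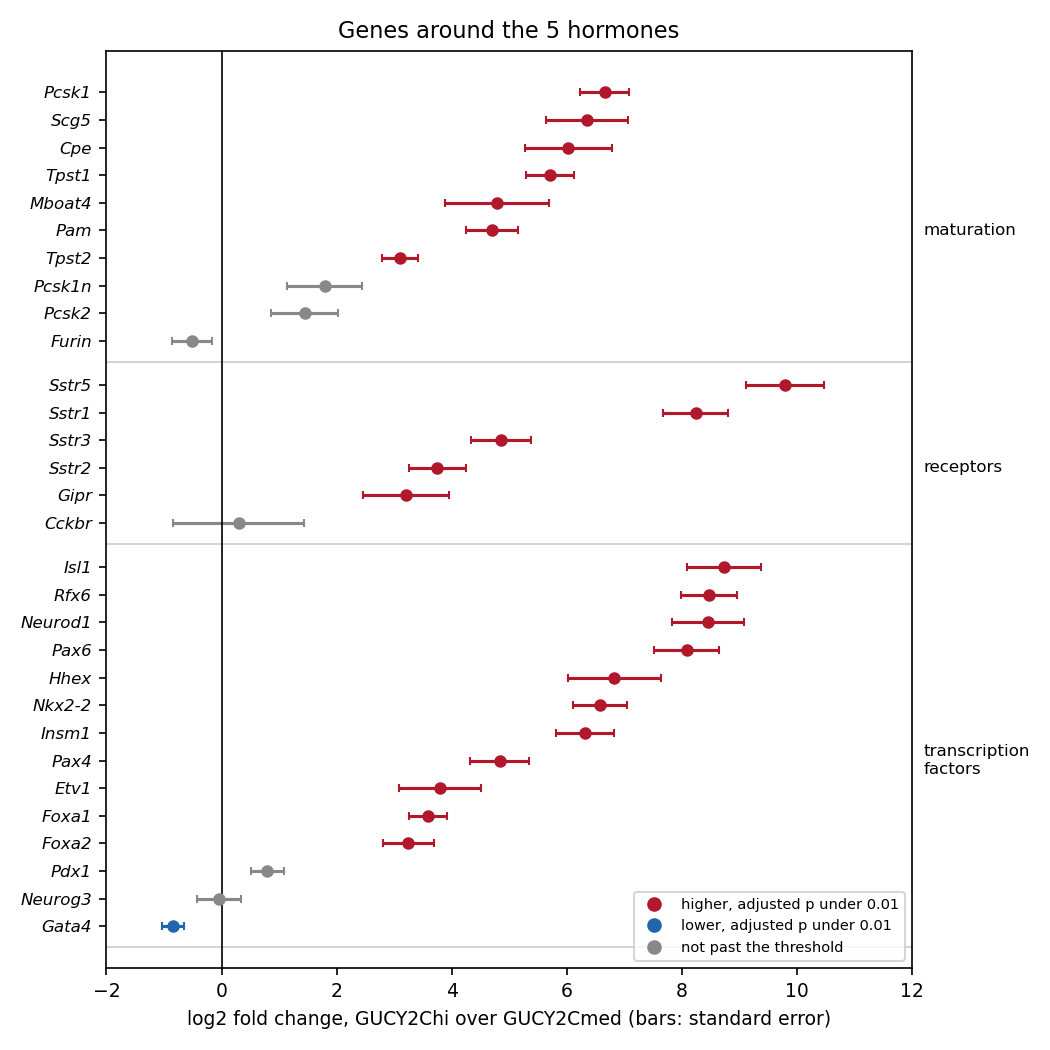
Log2 fold change of GUCY2Chi over GUCY2Cmed cells (points, x axis) with standard error (bars) for the tested maturation genes, receptors and transcription factors around the 5 hormones; red is higher, blue lower and grey not past an adjusted p of 0.01 (edgeR). Of the 30 genes shown, 23 were higher, with Sstr5 at 9.80 the furthest right, and Gata4 at -0.85 the only one called lower.

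The genes most like each hormone gene across the 10 libraries were found by the root mean square difference of log2 cpm after centring, among 9968 genes at 5 cpm or more. They were Pyy, Nts and Ambp for Gip, at 1.13 to 1.48 log2 units, and Scg5, Sstr1 and Amigo2 for Cck, at 0.53 to 0.61. For Sct they were Tph1, Sstr5 and Scgn, at 0.59 to 0.64, and for Ghrl Isl1, Gcg and Chga, at 0.64 to 0.91. For Sst they were Crybb1, Pcsk1 and Gm34701, at 0.22 to 0.29. Crybb1 and Gm34701 were at means of 0.0315 and 0 cpm in GUCY2Cmed cells, so their distance from Sst was set by the prior count of 2, and with a prior count of 0.5 Pcsk1 alone remained. With a prior count of 0.5 none of the genes named for Sct remained, among them Sstr5 at a mean of 0.149 cpm in GUCY2Cmed cells. For Ghrl only Isl1 remained, for Cck Scg5 and Amigo2, and for Gip all 3 genes. Among the 5 hormone genes the closest pair was Cck and Sct at 1.08 and the furthest Gip and Sst at 2.93. All distances with centring over 10 libraries include the difference between the groups, which was 11.30 log2 units for Gip and 6.82 for Sst. When each gene was centred within its group, the leading genes were Cacna2d1 for Gip at 0.35, Serpini1 for Cck at 0.17, Sf3a2 for Sct at 0.27, Hdc for Ghrl at 0.44 and Atp2a3 for Sst at 0.16. These likenesses are descriptions over 10 libraries that share their depth and composition.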

How the data were processed

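RNA-Seq counts of 10 libraries, 5 GUCY2Chi and 5 GUCY2Cmed from the same 5 mice, were used. The authors deposited whole-number read counts, which were made by their sequencing provider from NEBNext Ultra II libraries aligned with STAR; counter, annotation and strand setting are not given in the sources used here. FPKM values, as deposited, were used only for alternatives. The labels name mm9, but 99.9% of 20903 protein-coding symbols lie where RefSeq places them on GRCm38.p6, so positions are GRCm38 and genome sequence comes from RefSeq's promoter table of that build. The authors' comparison (log fold changes, p-values and test scores, made with limma 3.40.6 and edgeR 3.26.8 per the submitters' processing notes) and 10 columns of other per-library values were not used.

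The filter required over 0.5 cpm in 3 or more libraries, whichever their group. A list member scarce in GUCY2Cmed libraries, such as Mboat4, could thus enter only through GUCY2Chi libraries where it was high. Groups were compared in R 4.3.3 by edgeR 4.0.16 (TMM, quasi-likelihood, no mouse term, biological coefficient of variation 0.4585), with a Benjamini-Hochberg adjusted p under 0.01 over all genes tested. SE is the log2 fold change divided by the root of F. Ratios used log2 of counts plus 0.5 and exact two-sided permutation tests in Python 3.11.15 with scipy 1.17.1, with an adjusted p under 0.05; that threshold was not fixed with the design. The 5 genes, the lists, the markers and the rule for named genes (the 5, list members, Gcg, Pyy, Nts, Chga, and the 3 genes of smallest root mean square difference, prior count 2) were chosen with earlier results of these data known. Other marker genes are named where they make up a sum. Alternatives were limma-voom 3.58.1, DESeq2 1.42.0, other scaling and filters, the mouse as replicate block, a forebrain covariate, FPKM, and libraries left out. Same-numbered libraries were taken, from the labels, as the same mouse; their deviations from the group means correlated at -0.110, -0.223, 0.272, -0.124 and 0.0607 for mice 2, 7, 12, 14 and 15. The fits were tested on simulated data; a first version of that test failed because moderate differences were often missed, its difference sizes and pass mark were then altered, and a gene not past the threshold is therefore not shown to be unchanged. Counting floors cover counting error only. Of the transcription factor list, 1 gene is not reported here and was left out of its counts and median.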

Additional observations from a re-analysis of the deposited data

Results flagged for a closer look

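Of 30 groups of 5 libraries examined by Dixon's criterion (the gap to the nearest library relative to the range), 5 had a library apart; chance alone marks about 1 group in 20. GUCY2Chi library 15 was apart for Cck, at 6400.5 cpm, and for Sst, at 1210.45 cpm, in both cases below the other 4 libraries. GUCY2Cmed library 15 was apart for Sst on the other side, at 44.1 cpm. GUCY2Cmed library 12 was apart for Ghrl, at 0 counts and 0 cpm, and for the log2 count ratio of Ghrl to Sst, at -9.44.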

How the results depend on the processing

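The calls of the 5 hormone genes held in all 103 alternative values, counted per gene and setting, including the replicate block in edgeR (Gip 11.83, Cck 7.54, Sct 9.04, Ghrl 8.55, Sst 6.77 log2 units) and in limma-voom; with at least 10 counts in every library, Gip and Ghrl could not be tested. Leaving out 1 library gave 11.001 to 11.77 for Gip, 6.94 to 7.54 for Cck, 8.83 to 9.28 for Sct, 8.26 to 8.91 for Ghrl and 6.73 to 7.07 for Sst. Without TMM the median of all genes was 0.39 instead of 0.09.

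Genes called higher numbered 2186, or 1294 with the replicate block in edgeR. Genes called lower numbered 1381, or 779 with the replicate block, 2235 with DESeq2, 560 without TMM and 2186 without GUCY2Chi libraries 12 and 15, and 512 to 1609 with 1 library left out. The 1 lower transcription factor, Gata4, became 0 with the replicate block, without TMM, without libraries 12 and 15, and was 0 to 1 with 1 library left out. The block changed no other call than those of Mboat4, Gipr, Etv1 and Gata4 among the hormone genes and the 3 lists; Pdx1 passed without libraries 12 and 15 and with the forebrain covariate, and Pcsk1n with that covariate. The cause of these shifts was not tested.

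Without GUCY2Chi libraries 12 and 15 the ratio changes were 4.32 (Gip/Cck), 3.13 (Gip/Sct), 5.04 (Gip/Sst), 1.91 (Sct/Sst) and -0.78 (Sct/Ghrl); for distal hormones 2.49 (Gip/Gcg), -4.23 (Cck/Pyy), -3.75 (Cck/Nts), -3.04 (Sct/Pyy), 0.13 (Ghrl/Gcg), -2.56 (Sst/Gcg), -4.95 (Sst/Pyy) and -4.48 (Sst/Nts). None had an adjusted p under 0.0714 (exact permutation tests of 3 libraries against 5, which have few arrangements). From FPKM, Sct/Ghrl was -0.45. With 1 library left out, Sct/Ghrl ranged from -0.41 to 1.21, Cck/Ghrl from -2.21 to 0.16, Ghrl/Sst from 1.19 to 2.56 and Gip/Ghrl from 2.05 to 4.51; Gip/Gcg from 2.24 to 3.48, Cck/Gcg from -2.02 to -0.88, Ghrl/Gcg from -1.03 to 0.19, Ghrl/Pyy from -3.98 to -2.23, Gip/Pyy from -0.43 to 0.53, Sct/Gcg from -0.38 to 0.31 and Sct/Nts from -2.94 to -1.76. Gip/Gcg then passed in 2 of 10 fits, and 1 omission each made Ghrl/Sst (without GUCY2Chi 12, adjusted p = 0.0317), Gip/Ghrl (without GUCY2Cmed 12, 0.0317), Sct/Nts (without GUCY2Cmed 2, 0.0340), Cck/Gcg (without GUCY2Cmed 7, 0.0340) and Ghrl/Pyy (without GUCY2Cmed 12, 0.0298) pass by exact permutation test.

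From FPKM the shares moved to 52.9% (Gip), 26.1% (Cck) and 1.19% (Ghrl). Relative to the enteroendocrine sum the SD moved to 1.14 (Gip), 1.12 (Cck), 1.26 (Sct) and 0.72 (Ghrl). Relative to that sum without Chga and Chgb, chosen after seeing the data, it moved to 0.63 (Ghrl) and 0.41 (Sst). With a prior count of 0.5, of 3 most similar genes across 10 libraries 2 remained for Cck, 0 for Sct, 1 for Ghrl and 1 for Sst, and within groups 2 for Gip, 1 for Cck and 2 for Ghrl. Among the 5 hormone genes, depth limits Ghrl in GUCY2Cmed cells most, at 0 to 18 counts.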
